A study of Mus musculus with 2 samples.

Results

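The genes described here build and run the mitotic spindle, the microtubule machine that pulls sister chromosomes apart, and the kinetochore, the protein assembly that ties each chromosome to it. They were 40 genes chosen by name, and all 40 symbols were found among the 32285 genes of the deposited matrices. RNA was counted in single mouse CD8+ T cells from lymph node with a droplet kit that tags RNA molecules at their 3′ ends. The series set cells stimulated electrically through their matrix against unstimulated cells. There were 2 libraries, 1 labelled NC and 1 labelled HC. The labels spell out neither abbreviation, do not say which library was stimulated, and give no strain, age, activation or number of animals. With 1 library per group there was no replicate check, no test and no p-value, and each 95% interval covers counting error only. A difference between the libraries may therefore be a difference between 2 cell preparations.

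When a T cell divides, kinesin motors and microtubule-binding proteins set up the spindle, and the NDC80 complex of the outer kinetochore grips its microtubules. The spindle checkpoint holds the cell until every kinetochore is attached, after which the anaphase-promoting complex releases the sister chromosomes and the cleavage furrow splits the cell. Activated CD8+ T cells divide very fast, and most of these genes are transcribed mainly late in the cell cycle, under shared control by the DREAM complex, B-MYB and FOXM1.

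That shared control is read from promoters, so the stretches of 6 members are shown to let a reader see the elements the set has in common. DREAM and its partners bind the CHR element, whose letters are TTTGAA, and NF-Y binds the CCAAT box, whose letters are CCAAT. Both were searched on both strands, and a CHR match and a CCAAT match can overlap at no more than a single end base. Each stretch, from RefSeq on GRCm38.p6, runs from 130 bases before to 20 bases after the annotated start, 5′ to 3′ on the gene's own strand, with capitals marking complete matches to either motif or its reverse complement. The genes shown are Ube2c and Cenpf, which with Cdc20 differed most with cyclin B in NC, the microtubule bundler Prc1, Cdc20 itself, which was lower in HC among cells rich in proliferation markers, Kif14, whose ratio was the highest, and Mad2l1, which held neither motif.
Ube2c: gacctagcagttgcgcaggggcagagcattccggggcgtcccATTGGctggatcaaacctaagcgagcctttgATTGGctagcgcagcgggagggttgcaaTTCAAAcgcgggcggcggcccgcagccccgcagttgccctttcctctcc
Cenpf: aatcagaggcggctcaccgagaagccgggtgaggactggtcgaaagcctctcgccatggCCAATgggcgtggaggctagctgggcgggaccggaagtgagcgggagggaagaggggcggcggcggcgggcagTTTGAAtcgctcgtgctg
Prc1: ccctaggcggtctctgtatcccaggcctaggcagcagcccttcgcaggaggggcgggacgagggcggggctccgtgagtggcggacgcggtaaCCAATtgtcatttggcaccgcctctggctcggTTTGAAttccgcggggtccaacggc
Cdc20: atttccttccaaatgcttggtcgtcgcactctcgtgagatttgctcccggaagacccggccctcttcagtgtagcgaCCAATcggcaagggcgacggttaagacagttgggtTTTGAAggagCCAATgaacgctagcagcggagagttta
Kif14: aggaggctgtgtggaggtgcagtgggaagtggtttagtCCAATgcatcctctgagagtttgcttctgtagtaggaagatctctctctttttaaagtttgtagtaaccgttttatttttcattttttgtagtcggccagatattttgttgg
Mad2l1: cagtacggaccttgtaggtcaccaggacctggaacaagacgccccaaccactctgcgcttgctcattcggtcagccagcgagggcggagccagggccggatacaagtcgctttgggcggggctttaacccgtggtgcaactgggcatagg
These stretches lie at chr2:164769799-164769948 on the plus strand for Ube2c, chr1:189688067-189688216 on the minus strand for Cenpf, chr7:80294321-80294470 on the plus strand for Prc1, chr4:118437324-118437473 on the minus strand for Cdc20, chr1:136467718-136467867 on the plus strand for Kif14 and chr6:66535091-66535240 on the plus strand for Mad2l1. Kif14 has 1 TTTGAA match elsewhere in its 300-base window, outside the stretch shown. Ube2c has 6 CCAAT matches in its window, of which 2 lie in the stretch. Cenpf has 2, of which 1 lies in the stretch and 1 is cut by its edge and left unmarked.

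RefSeq promoter windows of 300 bases, 250 before and 50 after the start, were found for 35 of the 40 members, leaving Spc24, Aurkb, Incenp, Tpx2 and Kif20a without one. TTTGAA stood in the windows of 28 of the 35 (80%), against 20.2% of 27025 genes with such a window. Within 50 bases of the start it was present in 26 members (74.3%), against 5.72% of genes. CCAAT stood in 26 members (74.3%) against 41.1% of genes, and both motifs in 23 (65.7%) against 7.97%. The 4 members with neither were Birc5, Mad2l1, Nuf2 and Nusap1. A match is a description of letters and not a binding site, and the absence of a match says only that those letters are not in that window. The genes are spread over the genome, with 8 on chromosome 2, 5 on chromosome 9 and 4 each on chromosomes 1 and 11, per GENCODE vM21.

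Each captured RNA molecule carries a unique molecular identifier (UMI), so counts are of molecules. Sequencing gave 117408492 UMIs in 14798 NC barcodes and 116897716 in 15495 HC barcodes. Cells with at least 500 genes, at least 1000 UMIs and at most 10% mitochondrial UMIs were kept, 13641 in NC and 13617 in HC, with medians of 6898 and 7425 UMIs per cell. Doublets were not removed, and 64 barcode sequences occurred in both libraries. The markers of the labelled cell type were present: among cells rich in proliferation markers (at least 4 UMIs of Mki67 plus Top2a), 99.9% in each library had a UMI of Cd8a, Cd8b1, Cd3e or Trac. In those cells the NK, neutrophil and platelet markers were at 0 and Cd4 had 1 and 2 UMIs, NC first. Some markers of other lineages differed between the libraries: the B cell genes Cd79a and Ms4a1 had 126 and 42 UMIs in NC against 11 and 0 in HC, and the 3 macrophage genes 7 against 0 with C1qa at 0 in both. The dendritic genes had 60 against 98, of which 58 and 95 were Itgax. The interval of its log2 ratio of HC over NC, -0.09 to 0.89, held 0, so no difference is read there. Over all kept cells the macrophage gene Lyz2 had 416 NC UMIs and 0 in HC, the NK gene 1 UMI in HC and the neutrophil genes 5 in NC. Without any cell that held a UMI of Cd79a, Ms4a1 or Lyz2, the 40 genes had a median ratio of 0.36 over all kept cells and 0.095 in the rich cells.

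Over all kept cells, all 40 genes were higher in HC. Their summed level was 3733 UMIs per 1000000 (CPM) in NC against 4728 in HC, a log2 ratio of 0.34 (0.34 to 0.35). Ratios here and below are HC over NC on the log2 scale with the 95% interval in parentheses, and a pair of levels gives NC first. Levels are compared between libraries and not between genes, since 3′ counting does not capture all genes alike. The ratios of the single genes ran from 0.10 for Mad2l1 to 0.56 for Kif14, with a median of 0.36, and no interval reached 0. Of all genes, 29.1% had intervals above 0 and 39.6% below. Over the 8704 genes that reached 5 CPM in NC or HC the median was -0.03. At least 1.2-fold higher in HC were 33 of the 40, where 10.7% of all genes were, and none was so in NC, where 11.5% of all genes were. None reached 1.5-fold in either direction, against 1.93% of all genes toward HC and 1.47% toward NC. Cells of at least 5000 UMIs were also thinned to 5000, which left out 3516 NC and 2920 HC cells and weighted the rest equally. In them all 40 genes were still above 0, the median was 0.55 and 13 reached 1.5-fold toward HC. The share of all genes was not computed after thinning, so the 13 have no background beside them. Fewer cells of a type and less RNA per cell cannot be told apart in such sums, so the cells were split by their own proliferation markers.

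The highest ratios over all kept cells, after Kif14, belonged to the cytokinesis scaffold Anln at 11.6 and 16.5 CPM (0.51, 0.41 to 0.62) and the checkpoint kinase Ttk at 16.4 and 23.2 CPM (0.50, 0.42 to 0.59). The spindle pole protein Aspm stood at 50.7 and 70.7 CPM (0.48, 0.43 to 0.53), Bub1 at 26.4 and 36.2 CPM (0.46, 0.39 to 0.52), and the kinetochore motor Cenpe at 108 and 147 CPM (0.45, 0.42 to 0.49). These 5 genes came from 4 roles. Birc5 stood at 324 and 440 CPM (0.44) and Ube2c at 368 and 456 CPM (0.31, 0.29 to 0.33). The lowest ratios were those of Mad2l1 at 50.9 and 54.5 CPM (0.05 to 0.15), Cdc20 at 126 and 136 CPM (0.08 to 0.14) and Cenpm at 69.1 and 75.4 CPM (0.13, 0.08 to 0.17). The intervals of these 3 genes overlapped each other and lay below that of every gene just named. Summed by role, the ratios ran from 0.26 (0.25 to 0.28) for the pair Ube2c and Cdc20 to 0.37 for the kinesin, microtubule-binding and cytokinesis groups.

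**Figure D1:**
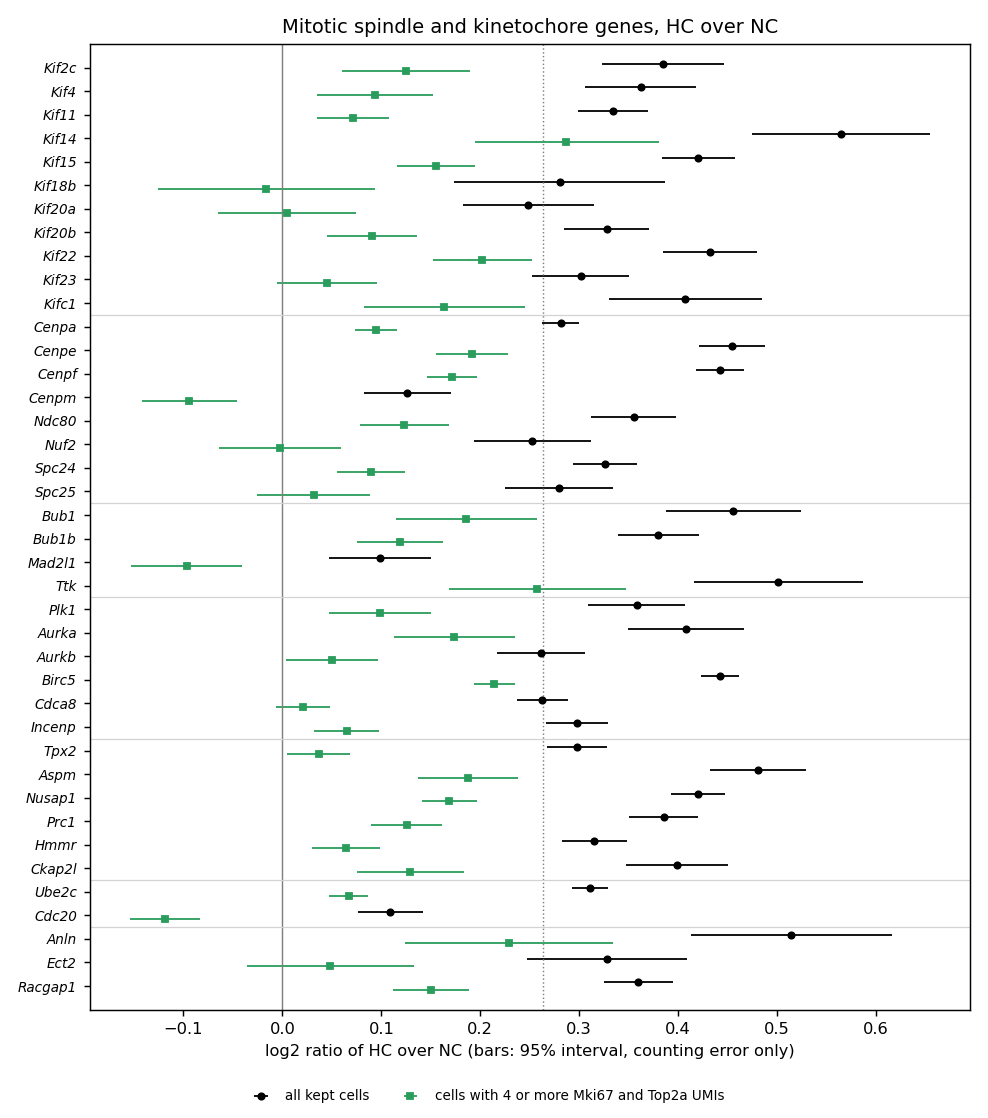
Log2 ratio of HC over NC for each of the 40 genes (rows, ordered by role with grey lines between roles), over all kept cells and over Mki67/Top2a-rich cells, with bars for 95% counting intervals. The dotted line marks 1.2-fold. All 40 points over all kept cells lie right of 0, and 35 of 40 over Mki67/Top2a-rich cells.

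Cells with at least 4 UMIs of Mki67 and Top2a together, here called Mki67/Top2a-rich cells, made up 5418 of the NC cells (39.7%, 38.9 to 40.5) and 7646 of the HC cells (56.2%, 55.3 to 57.0). Mki67 coats mitotic chromosomes, Top2a untangles DNA, and neither is among the 40 genes. This class is a range of values and not a cell type: 776 NC and 570 HC cells had exactly 3 such UMIs, and 584 and 400 had exactly 4. Its cells were deeper than the other kept cells, with medians of 10873 UMIs in NC and 9513.5 in HC. They held 55.5% of the kept NC UMIs and 70.1% of the kept HC UMIs. In the median gene, 89.1% of its NC UMIs and 94.0% of its HC UMIs lay in them. The class thus carried most transcripts of every member. Levels there were 6.53 times those of the other kept cells in NC for the median gene and 6.67 times in HC. The histone variant Cenpa was the least restricted, at 2.73 and 2.57 times, with 77.4% and 85.8% of its UMIs in the class. The most restricted were Kif18b in NC, at 11.3 times and 93.4%, and Prc1 in HC, at 18.9 times and 97.8%. Within it, the summed level of the 40 genes was 5809 CPM for NC and 6231 CPM for HC, and a median cell held 53 and 60 member UMIs. A cell with no UMI of either marker gave 584 CPM for NC and 709 for HC.

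Within the Mki67/Top2a-rich cells the difference was smaller. The median ratio was 0.10, with 35 of 40 above 0, 30 intervals wholly above 0, 3 wholly below and 7 holding 0. Of all genes there, 26.2% had intervals above 0 and 35% below. Over the 8654 genes tested there the median was -0.02. Kif14 alone reached 1.2-fold in HC, where 8.98% of all genes did, and none did in NC, where 12% of all genes did. At 1.5-fold the counts were 0 toward HC and 0 toward NC, beside 1.86% and 1.73% of all genes. TMM scaling put 37 above 0 and median-of-ratios scaling 36. After thinning to 5000 UMIs, with shallower cells left out and the same threshold applied anew, the median was 0.0084, with 21 of 40 above 0. For these alternatives no share over all genes was computed. Across the alternatives run, 21 genes were above 0 in each, Cdc20, Mad2l1 and Cenpm were below 0 in each, and the sign of the other 16 varied, so the small ratios below hold for total-UMI scaling at full depth.

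The split can be put as 2 parts. Giving NC the HC share of UMIs in Mki67/Top2a-rich cells, with its own levels in each class, gave a median log2 ratio of 0.26, from 0.17 for Cenpa to 0.29 for Kif18b. Giving NC the HC levels in each class, with its own shares, gave a median of 0.09, from -0.10 for Mad2l1 to 0.28 for Kif14, with 33 of 40 above 0. These levels are summed over each class, so a different spread of cells inside a class counts here as level. Of kept NC and HC cells, 14.8% and 12.3% had 4 to 9 marker UMIs and 9.80% and 20.3% had 10 to 19. At least 20 were held by 15.1% and 23.6%. In NC the 40 genes stood at 3394, 4786 and 7616 CPM in those ranges. The 0.09 thus does not separate level from spread inside the class. The measured ratio exceeded the value from shares alone in 35 genes and was below it in 5. The genes below were Cdc20, Mad2l1, Cenpm, Kif18b and Nuf2. They are the same genes whose ratio was below 0 within the rich cells, so this count is no separate observation. The counts of either part have no share over all genes beside them, since none was computed.

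**Figure D2:**
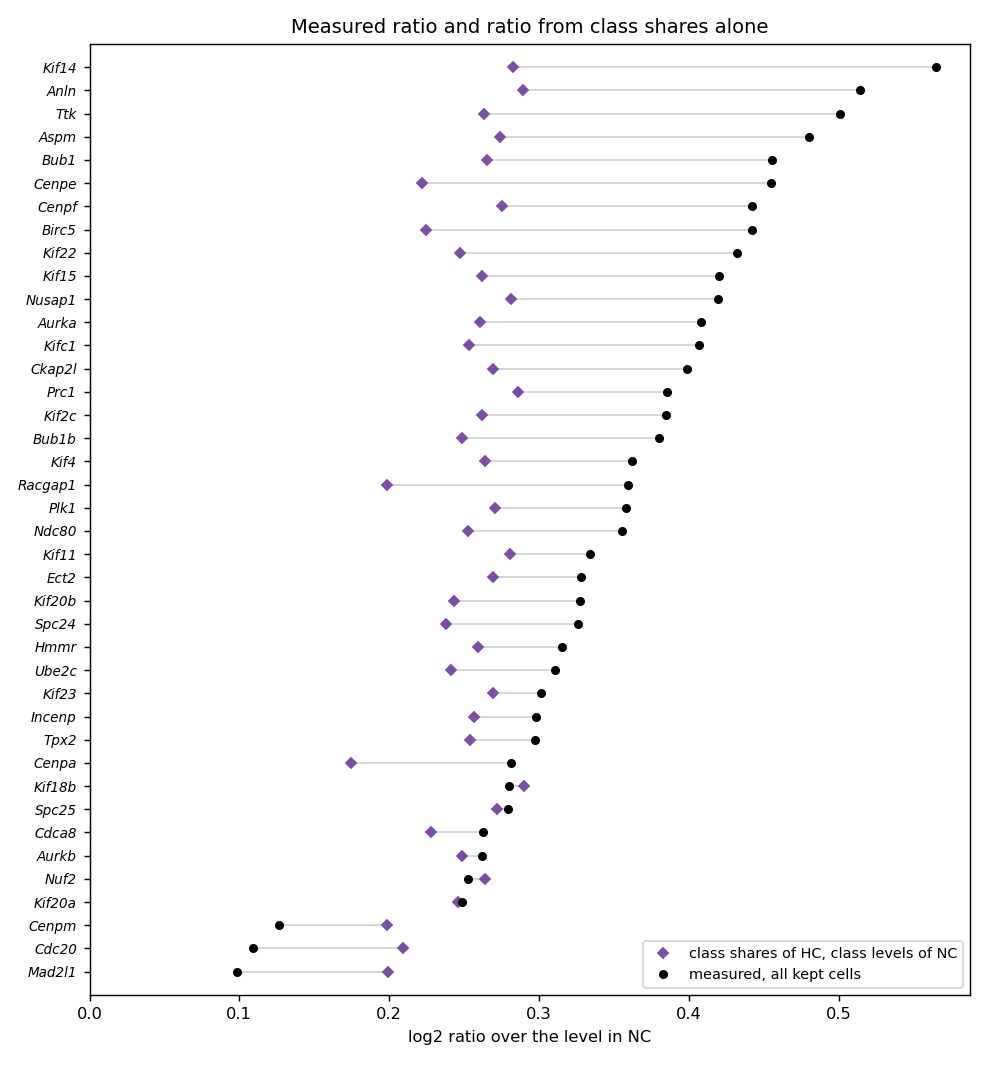
For each gene (rows, ordered by measured ratio), the measured log2 ratio of HC over NC in all kept cells (black circles) and the ratio obtained with the class shares of HC and the class levels of NC (purple diamonds), joined by a grey line. The diamonds lie between 0.17 and 0.29, and in 35 of 40 genes the circle lies to their right.

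Among the 11 kinesin motors the summed level was 510 CPM for NC and 657 for HC over all kept cells (log2 0.37), and 821 and 886 CPM within the Mki67/Top2a-rich cells (0.11). Kif14, a motor of the midbody that is needed for cytokinesis, stood at 14.6 and 21.6 CPM over all kept cells, a log2 ratio of 0.56 (0.47 to 0.65). Within the rich cells it stood at 24.2 and 29.5 CPM (0.29, 0.19 to 0.38). These were the highest ratios of the set in both comparisons. Kif22, which pushes chromosome arms outward, was at 84.2 and 96.9 CPM (0.20), Kif15, which helps keep the spindle bipolar, at 141 and 157 CPM (0.16), Kifc1, which bundles spindle poles, at 32.7 and 36.7 CPM (0.16), and Kif2c, which depolymerises misattached microtubules, at 52.2 and 56.9 CPM (0.13). Kif11, the motor that separates the spindle poles, was at 164 and 172 CPM (0.07), Kif4, which organises the central spindle, at 64.2 and 68.5 CPM (0.09), and Kif20b, which acts late in cytokinesis, at 105 and 112 CPM (0.09). Kif23, a centralspindlin subunit, was at 87.1 and 89.9 CPM (0.04), with an interval that held 0. Kif20a, which moves the passenger complex to the midzone, was at 46.6 and 46.7 CPM with an interval of -0.07 to 0.07, and Kif18b, which tunes astral microtubules, was at 19.2 and 18.9 CPM (-0.13 to 0.09). Neither of these differed beyond counting error.

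Of the 8 centromere and outer kinetochore genes, 5 had intervals above 0 within the rich cells, 1 below and 2 that held 0. Cenpa, the histone variant that marks centromeres, was at 500 and 534 CPM (0.09). Cenpe, the motor that aligns chromosomes, was at 162 and 185 CPM (0.19), and Cenpf, an outer kinetochore protein, at 340 and 383 CPM (0.17, 0.15 to 0.20). These were the highest ratios of the role. The NDC80 complex gave unequal ratios: Ndc80 was at 107 and 116 CPM (0.12, 0.08 to 0.17) and Spc24 at 185 and 197 CPM (0.09, 0.06 to 0.12), but Spc25 was at 69.7 and 71.3 CPM (-0.03 to 0.09) and Nuf2 at 60.1 and 60.0 CPM (-0.06 to 0.06). Cenpm, a constitutive centromere protein, was lower in HC, at 100 and 94.0 CPM (-0.09, -0.14 to -0.05).

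In the checkpoint group, Ttk, the kinase that starts checkpoint signalling, was at 26.5 and 31.7 CPM (0.26, 0.17 to 0.35). Bub1, which places checkpoint proteins on kinetochores, was at 42.6 and 48.5 CPM (0.19), and Bub1b, a subunit of the checkpoint complex, at 115 and 125 CPM (0.12). Mad2l1, which inhibits the anaphase activator, went the other way at 74.0 and 69.2 CPM (-0.10, -0.15 to -0.04), although it was 50.9 and 54.5 CPM over all kept cells (0.10). Cdc20, the activator it holds back, was lower in HC in the same way. Its level was 186 and 171 CPM in the rich cells (-0.12, -0.15 to -0.08), and 126 and 136 CPM over all kept cells (0.11). Ube2c, the ubiquitin-loading enzyme of the same complex, was at 572 and 600 CPM (0.07).

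Among the kinases and the chromosomal passenger complex, all 6 genes were above 0 in the rich cells. Birc5, also called survivin, was at 491 and 570 CPM (0.21, 0.19 to 0.23), while its complex partners were closer to even: Cdca8, borealin, at 301 and 305 CPM (-0.01 to 0.05), Incenp, the scaffold, at 207 and 216 CPM (0.06), and Aurkb, the complex's kinase, at 103 and 107 CPM (0.05). Aurka, which matures spindle poles, was at 57.2 and 64.5 CPM (0.17), and Plk1, which acts at entry and exit from mitosis, at 84.1 and 90.0 CPM (0.10). The interval of Birc5 did not overlap those of its partners.

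The microtubule-binding group held 6 genes with ratios between 0.04 and 0.19. Aspm, which focuses spindle poles, was at 83.1 and 94.7 CPM (0.19), Nusap1, which bundles microtubules near chromatin, at 273 and 307 CPM (0.17), Prc1, which bundles antiparallel microtubules, at 171 and 186 CPM (0.13), and Ckap2l, a spindle protein, at 74.8 and 81.9 CPM (0.13). Hmmr, a spindle assembly factor, was at 188 and 196 CPM (0.06) and Tpx2, the activator of Aurka, at 217 and 222 CPM (0.04). In cytokinesis, Anln, a furrow scaffold, was at 19.5 and 22.8 CPM (0.23), Racgap1, the other centralspindlin subunit, at 147 and 163 CPM (0.15), and Ect2, which activates the contractile ring, at 31.5 and 32.6 CPM (-0.04 to 0.13).

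The ratio was not the same in all ranges of marker UMIs. Cells with 4 to 9 marker UMIs gave a median ratio of -0.11 with 12 of 40 above 0, those with 10 to 19 gave 0.29 with 38 above 0, and those with at least 20 gave -0.0093 with 18 above 0. Of all genes tested in the rich cells together, 45.1% were above 0, and no such share was computed for a single range. In cells with 1 to 3 marker UMIs the median was -0.10, and in cells with none 0.16. With thinning to 5000 UMIs the median in cells with none was 0.59. That class was set anew on the thinned counts, without cells under 5000 UMIs, so its cells are not the same. The 40 genes made up 0.479% of NC UMIs and 0.580% of HC UMIs in the middle range, and 0.762% and 0.761% in the highest. HC had 20.3% of its kept cells in the middle range and NC 9.80%. The median depth in that range was 11749 UMIs in NC and 9006 in HC, and the part of depth in this pattern was not tested.

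**Figure D3:**
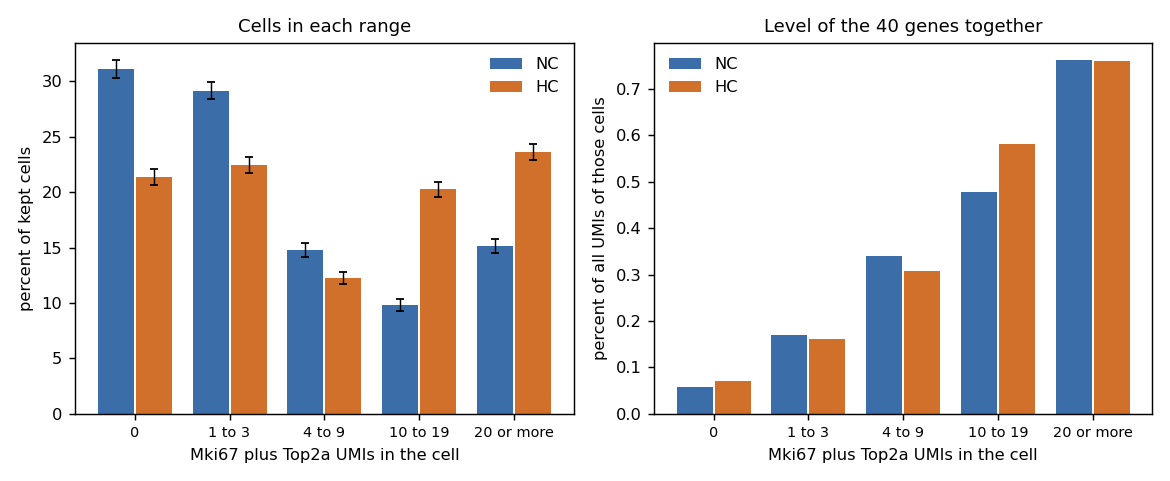
Share of kept cells (left) and share of UMIs from the 40 genes (right), in 5 ranges of Mki67 plus Top2a UMIs, for NC and HC. The member share of UMIs is higher in HC in the range of 10 to 19, and 0.762% and 0.761% at 20 or more.

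The ratio also differed between ranges of depth. Among Mki67/Top2a-rich cells under 8000 UMIs the median over the 40 genes was 0.26 with 35 above 0, among those of 8000 to under 16000 it was -0.0047 with 18 above 0, and among those of at least 16000 it was 0.11 with 35 above 0. Beside these counts stands the 45.1% of all genes above 0 in the rich cells together, with no share computed per range of depth. HC had 2420 cells in the shallowest range and NC 1471.

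The cells below the threshold differed from gene to gene. In cells with 1 to 3 marker UMIs, Prc1 was at 26.1 and 12.5 CPM (-1.07, -1.29 to -0.85), and Nusap1 at 47.1 and 22.5 CPM (-1.06, -1.23 to -0.90). Aspm was higher in HC, with a log2 ratio of 0.44 (0.24 to 0.64), and Cenpe was at 57.9 and 78.1 CPM (0.43). Of the 40 genes, 37 had at least 5 CPM in either library there, and among them 16 had intervals below 0 and 6 above. Over all genes of that class the shares were 26.4% below and 17.5% above. In cells with no marker UMI, 14 had intervals above 0 and none below, or 12 of the 25 with at least 5 CPM, where 12.5% of all genes lay above and 29.9% below. Ube2c was at 65.7 and 103 CPM (0.65) and Cenpe at 20.6 and 34.5 CPM (0.75). Bub1 had the highest ratio there (1.09), on 46 NC and 58 HC UMIs. Of the 40 genes, 15 had under 5 CPM in both libraries in that class.

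The number of cells with a UMI was compared at 2000 UMIs per cell, drawn without replacement, and 133 shallower cells of NC and 94 of HC were left out. Over all kept cells the share of cells with a UMI was 9.63% in NC and 11.9% in HC for the median gene, and all 40 were higher in HC. The intervals of the 2 libraries were apart for 38 of them. In Mki67/Top2a-rich cells the medians were 18.0% and 18.2%, with 37 higher in HC. There the intervals were apart for 13 genes higher in HC and 1 higher in NC. No share over all genes was computed for these counts. The background in cells with no marker UMI was 1.74% and 1.69% in the median, at median depths of 5659 and 4922 UMIs before thinning. In those rich cells Birc5 was seen in 58.9% of NC and 63.0% of HC cells after thinning, and in 91.5% and 93.4% before it, against 9.49% and 10.8% in cells without a marker UMI. Cdc20 was seen more often in NC, in 28.5% against 25.5% after thinning and 66.9% against 63.2% before.

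To see how the 40 genes differ along the cycle, Mki67/Top2a-rich cells were divided at 4 UMIs of Ccnb1 plus Ccnb2, the B-type cyclins that peak at mitosis and are not among the 40. Cyclin B-rich cells were 1766 of 5418 in NC (32.6%, 31.3 to 33.9) and 2580 of 7646 in HC (33.7%, 32.7 to 34.8). Exactly 3 such UMIs were found in 603 NC and 914 HC cells, and exactly 4 in 393 and 651. The difference of 1.15 points turned to -1.21 points with thinning to 5000 UMIs, so no direction is read from it. Member genes differed widely between the 2 classes. Cenpf was 2.98 times as high in cyclin B-rich cells in NC and 2.31 times in HC, Ube2c 2.97 and 2.49 times, Cdc20 2.83 and 2.50 times, Aspm 2.65 and 2.10 times, and Aurka 2.31 and 2.06 times. At the other end Cenpm was 1.03 and 0.93 times as high, Kif15 1.08 and 0.93 times, Spc24 1.08 and 1.03 times, Spc25 1.13 and 1.06 times, and Ndc80 1.15 times in NC with 116 CPM in both classes of HC. Genes of anaphase promotion and Cenpf, Cenpa (2.27 and 1.94 times) and Cenpe (2.16 and 1.73 times) thus stood high in cyclin B-rich cells. Of the NDC80 complex, Ndc80, Spc24 and Spc25 stood there little or no higher than in the rest. Its subunit Nuf2 differed more, at 71.6 CPM in cyclin B-rich against 52.1 CPM in cyclin B-poor cells in NC. In HC Nuf2 was at 69.4 against 53.5 CPM. The order of the 40 genes was alike in the 2 libraries (Pearson's r 0.97, Spearman's rho 0.96 over 40 genes of the same cells, a description), and each of the 40 had the lower fold in HC. The share of all genes with a lower fold in HC was not computed, so this count is not read as particular to the 40 genes.

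In cyclin B-rich cells the median ratio of HC over NC was 0.00049, with 20 of 40 above 0, 9 intervals wholly above 0 and 9 wholly below. Of all genes in those cells, 18.6% lay above and 29.4% below. In cyclin B-poor cells it was 0.23, with 37 above 0, 34 intervals wholly above 0 and none below, against 25% of all genes above and 30.5% below. Kif14 had the highest ratio among the cyclin B-poor cells, at 17.0 and 25.4 CPM (0.59, 0.45 to 0.73), against 34.7 and 35.4 CPM in cyclin B-rich cells (0.03). Cenpf was at 188 and 249 CPM in the poor and 559 and 575 CPM in the rich class. Median depths were 9844.5 and 8757 UMIs in the poor class and 13232 and 11423 in the rich class. With thinning to 5000 UMIs, shallower cells left out and both thresholds applied anew, the median ratios were 0.046 in the poor and -0.12 in the rich class.

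**Figure D4:**
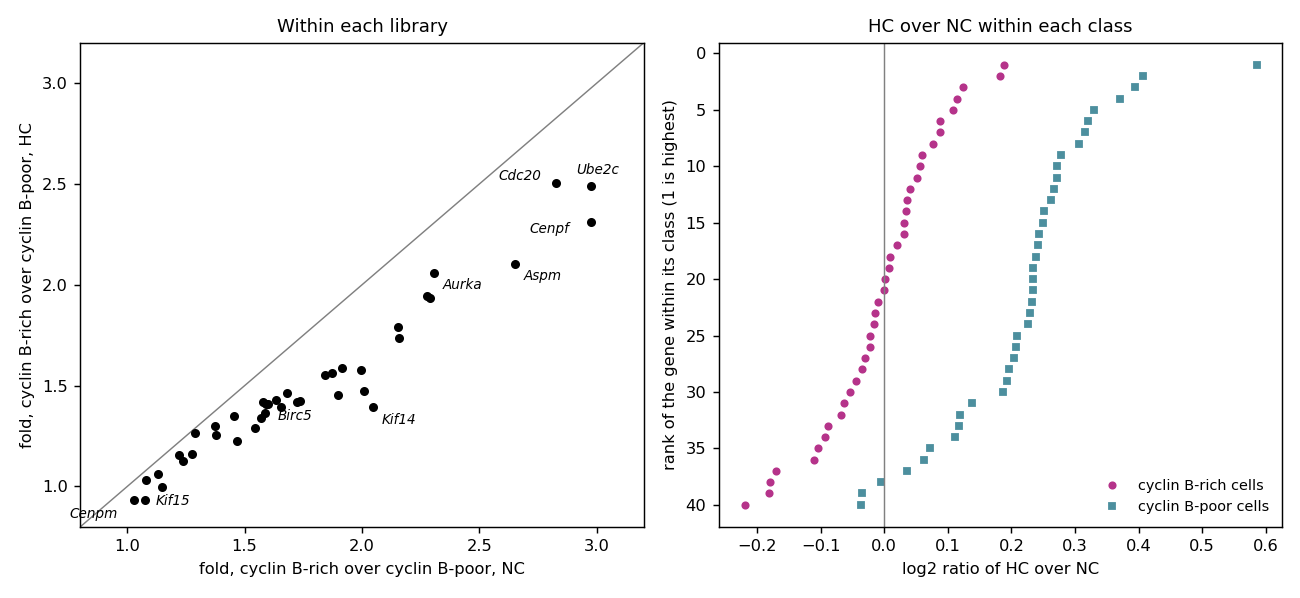
Left, the fold of cyclin B-rich over cyclin B-poor cells in HC (vertical) against NC (horizontal), 1 point per gene, with the diagonal marking equality. All 40 points lie below it, and the share of all genes below it was not computed. Right, the log2 ratio of HC over NC of each gene, ranked within cyclin B-rich and within cyclin B-poor cells.

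The other genes of these pathways were read from lists chosen by name, and their counts at 1.2-fold toward HC stand beside 10.7% of all genes over all kept cells and 8.98% in the rich cells. Of 33 further kinetochore genes, 19 were at least 1.2-fold higher in HC over all kept cells and the median was 0.27. Within the Mki67/Top2a-rich cells 4 of 33 were, with a median of 0.07. In the rich cells the counts of the lists that follow, unlike those over all kept cells, were all below the share of all genes, and single genes are named for their values alone. There Kntc1, a checkpoint subunit that recruits dynein, stood at 18.0 and 24.8 CPM (0.46), Hjurp, the Cenpa chaperone, at 151 and 194 CPM (0.36), and Cenpp at 47.8 and 59.6 CPM (0.32). Of 37 further spindle and centrosome genes, 17 of the 36 tested reached 1.2-fold over all kept cells, and 3 of 37 in the rich cells (Kif21b, 0.35, Kif24, 0.27, and Kif3a, 0.27). Of 29 checkpoint and anaphase regulators, 12 did over all kept cells and 2 in the rich cells (Mastl, 0.27, and Anapc2, 0.27), and of 18 condensin and cohesin genes, 7 and 1 (Ncaph2, 0.32), with Smc4 at -0.13. Of 28 S phase genes, 9 did over all kept cells and 1 in the rich cells (Cdt1, a replication licensing factor, 0.35), with a median of 0.02. Of 20 transcription factors of the mitotic programme 18 were tested, and their median in the rich cells was 0.06. There 1 factor passed 1.2-fold toward HC and 2 toward NC. E2f2 was at 78.3 and 110 CPM (0.50), while Tfdp1, its dimer partner, was at 86.2 and 66.6 CPM (-0.37) and E2f4, of the repressive DREAM complex, at 52.8 and 43.9 CPM (-0.27).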

How the data were processed

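RNA was measured in 1 NC and 1 HC library. The values are raw UMI counts as deposited, written by Cell Ranger 6.1.2 per the file headers. Seurat 3.2.3, mm10 and Cell Ranger 5.0.0 stand in the submitters' processing notes, with no role given. Counts of kept cells were summed per library and class and divided by the total to give CPM. Intervals are exact at 95% (Poisson for CPM, binomial for shares and ratios). A gene was counted if NC or HC reached 5 CPM, and sizes of 1.5-fold and 1.2-fold were used. A count of 0 would allow 0.0259 CPM in NC and 0.0262 CPM in HC over all kept cells. The 40 genes and the other lists were chosen with earlier results of these data known. Text names all 40 genes, the marker genes and up to 4 genes of each other list with the largest ratio in the rich cells. Thinning was done without replacement with a fixed seed. Scripts were tested on simulated data. Alternatives to scaling (TMM of edgeR 4.0.16 and median-of-ratios of DESeq2 1.42.0, scaling only), cell filter, weights, threshold and depth were run, and those on shared barcodes, the spread of depth and cells with markers of other lineages (1 of these is not reported here) were added after the data were seen. Gene positions came from GENCODE vM21, and promoter windows from RefSeq on GRCm38.p6. Work used Python 3.11.15, numpy 2.4.6, scipy 1.17.1, pandas 2.3.3, matplotlib 3.10.9 and R 4.3.3.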

Additional observations from a re-analysis of the deposited data

How the results depend on the processing

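Over all kept cells, all 40 genes kept their direction under 10 alternatives. In Mki67/Top2a-rich cells, 21 were above 0 and 3 below 0 (Cdc20, Mad2l1 and Cenpm) as reported and under all 18 alternatives, and 16 varied in sign. No paired analysis was possible because there was 1 library per group, and the replicate numbers only name the samples. With cells thinned to 5000 UMIs (3516 NC and 2920 HC cells left out, classes set anew on the thinned counts), the median was 0.55 over all cells, 0.49 from class shares alone, 0.0084 in the rich cells, 0.59 in cells without a marker UMI, 0.046 in the cyclin B-poor cells and -0.12 in the cyclin B-rich cells. Weighting each cell equally gave 0.42 over all cells and 0.34 from shares alone, and shares alone gave 0.21 with a threshold of 2 UMIs, 0.21 with Top2a alone and 0.30 with 8 UMIs. The rich-cell median was 0.15 with Top2a alone. Genes at least 1.2-fold higher in HC in the rich cells (1) were 2 with TMM, 2 with median-of-ratios scaling, 2 with equal weights, 3 with 2 UMIs, 3 with Top2a alone, and 0 with 5% mitochondrial UMIs, thinning, Mki67 alone or 8 UMIs. With thinning 1 was 1.2-fold higher in NC. Over all cells at least 1.5-fold higher in HC (0) were 13 with thinning, 3 with equal weights and 1 without the deepest 2% of cells. For the alternatives of scaling, weights, cells and threshold no share over all genes was computed. The share of cyclin B-rich cells differed by 1.15 points (HC minus NC), by 3.02 with 5% mitochondrial UMIs, 4.04 with 2 UMIs, 4.35 with Top2a alone and 3.67 per 10000 UMIs, but by -1.21 with thinning, -0.27 with Mki67 alone and -2.79 with 8 UMIs; the cause was not tested. The share of Mki67/Top2a-rich cells was, in HC and NC, 61.5% and 41.4% with 5% mitochondrial UMIs (difference 20.05 points), 59.9% and 36.9% with thinning (23.0), 66.9% and 53.8% with 2 UMIs (13.1), 57.2% and 38.5% with Mki67 alone (18.7), 57.3% and 43.8% with Top2a alone (13.5), 60.2% and 45.9% per 10000 UMIs (14.4), 47.2% and 27.9% with 8 UMIs (19.4), and 55.3% and 38.5% without the deepest 2% of cells. All-gene counts at 1.5-fold, toward HC in all kept and in rich cells, were 69 and 61 with a floor of 20 CPM and 1791 and 1685 with 3 UMIs, and toward NC 56 and 78, and 1294 and 1200. At 1.2-fold they were 448 and 336, and 3461 and 3294, toward HC, and 551 and 601, and 3152 and 2925, toward NC. With 1 library per group, neither the spread between animals or cultures nor their part in any ratio could be measured, and genes with few UMIs in the lower classes have wide intervals.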

Other observations

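Genes that earlier results of these data put higher in HC (Bnip3, Aldoc, Slc16a3, Ankrd37, Egln3 and Ndrg1, which respond to low oxygen) were used to divide the Mki67/Top2a-rich cells. In NC, 2770 cells (51.1%) had no UMI of these genes and gave 6132 CPM for the 40 spindle and kinetochore genes, and 1074 cells (19.8%) had at least 2 and gave 5293 CPM. The median ratio between them was -0.19, with 0 of 40 genes above 0. In HC, 2443 cells (32.0%) gave 6629 CPM and 3379 cells (44.2%) gave 6032 CPM, a median of -0.15 with 2 of 40 above 0. Median depths were 9306 and 15805 UMIs in NC and 8013 and 11428 in HC, and cyclin B-rich cells were 28.4% and 41.6% in NC and 27.1% and 40.5% in HC. No share over all genes stands beside these counts, so they are not read as particular to the 40 genes. The part of depth and of cyclin B in these values was not tested.

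Barcodes outside the cell filter, not used elsewhere, numbered 1157 in NC and 1878 in HC, with medians of 916 and 826 UMIs. Of these, 111 in NC (9.59%, 7.96 to 11.4) and 287 in HC (15.3%, 13.7 to 17.0) had at least 4 UMIs of Mki67 plus Top2a, and the 40 genes stood at 4946 and 5611 CPM in them.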
